A study of Mus musculus with 12 samples.

Results

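The genes described are 10 of the 47729 in the count table of a mouse heart study: the adhesion molecules Icam1, Vcam1 and Selp, the stored and junctional proteins Vwf, Pecam1 and Cdh5, the nitric oxide synthase Nos3, the peptide Edn1, and its receptors Ednra and Ednrb. They were taken by name as a set of endothelial adhesion, identity and endothelin genes, and each name matched 1 row by its Ensembl identifier. RNA-seq was made from hearts of male C57BL/6 mice that were 8 weeks old when a subcutaneous pump was placed for 28 days. There were 4 groups with 3 libraries each. The EHP-101 group (Ang II + EHP-101) had angiotensin II in the pump and oral EHP-101 at 20 mg/kg, and the losartan group (Ang II + Losartan) had angiotensin II and losartan at 0.6 g/L in the drinking water. The Ang II group had angiotensin II and the control group saline, and the design gives a vehicle for mice without a drug. EHP-101 is an oral formulation known to activate the nuclear receptor PPAR gamma and a cannabinoid receptor, and losartan blocks the main receptor of angiotensin II. Both drugs were given in the last 2 weeks of the infusion. Control titles also hold words that name them the control of angiotensin II, and these samples were taken as the saline group of the design.

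Endothelial cells line every vessel and the chambers of the heart. When activated by cytokines or by angiotensin II, they show P-selectin, VCAM-1 and ICAM-1 on their surface, on which leukocytes roll and then hold. They also release endothelin-1, which constricts smooth muscle through the receptor of Ednra, while the receptor of Ednrb on the endothelium itself releases nitric oxide and clears the peptide. In the heart, cardiomyocytes and fibroblasts can also make or answer endothelin, so a heart library holds the sum of these cells.

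The data were raw read counts per gene, with totals of 22155418 to 24040516 per library. Expression is given in CPM, the read count scaled to a common library size with TMM factors, and levels are compared between genes only in CPM per kb of exon. All 10 genes had enough reads to be tested, among 15336 genes in all. A gene is called changed where the quasi-likelihood test of edgeR gave a p under 0.05 after Benjamini-Hochberg adjustment over all tested genes. Nothing in the labels ties a replicate to its own animal, so the p-values measure the spread between libraries, and part of that spread may be technical. The tissue label was met by the markers: 10 of 10 cardiomyocyte genes and 22 of 22 further endothelial genes had reads in every library. Control replicate 2 stood apart, at -84.37 on the first principal component (35.3% of the variance), where the other libraries lay between -12.72 and 32.41. Atrial markers also differed between libraries, with 14 genes summing to 3140 to 3600 CPM in the EHP-101 group, 1370 to 5110 CPM in the losartan group, 4500 to 6540 CPM under Ang II, and 2100 to 4880 CPM in the control group. Since these are tissue libraries, fewer cells of a type and less RNA per cell cannot be told apart.

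The results turn on Edn1 and Ednrb, which had the smallest p-values of the set and varied together over the libraries, so the promoters of this pair are shown. In GRCm38 (GENCODE M21), Edn1 (ENSMUSG00000021367) spans chr13:42301476-42307990 on the plus strand and Ednrb (ENSMUSG00000022122) spans chr14:103814625-103844402 on the minus strand. The sequences are RefSeq promoters of GRCm38.p6 and run, on the strand of the gene, from 250 bases before the RefSeq start to 50 bases after it. The RefSeq start of Edn1 is also its GENCODE start, and that of Ednrb lies inside the GENCODE span. The window of Edn1 covers chr13:42301226-42301525 and that of Ednrb chr14:103843652-103843951. Capitals mark the motif matches found by a search of both strands.
Edn1 promoter: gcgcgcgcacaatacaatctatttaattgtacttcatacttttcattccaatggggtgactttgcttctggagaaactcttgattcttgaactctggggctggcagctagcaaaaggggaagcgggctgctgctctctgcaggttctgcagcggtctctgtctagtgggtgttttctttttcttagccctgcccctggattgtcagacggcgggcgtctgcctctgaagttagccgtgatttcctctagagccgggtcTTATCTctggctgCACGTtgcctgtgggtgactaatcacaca
Ednrb promoter: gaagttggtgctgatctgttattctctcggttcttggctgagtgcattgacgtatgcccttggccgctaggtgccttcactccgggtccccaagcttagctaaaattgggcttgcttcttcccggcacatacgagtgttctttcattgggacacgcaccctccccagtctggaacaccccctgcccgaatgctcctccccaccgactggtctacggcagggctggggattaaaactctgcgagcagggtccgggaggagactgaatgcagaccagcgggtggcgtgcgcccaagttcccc
The search was for the TATA box as TATAAA, for the site of AP-1 as TGANTCA, for that of NF-kB as GGAAANTCC, for that of GATA factors as AGATAA, and for the core of the hypoxia response element as ACGTG, and no match overlapped another. The Edn1 window held the GATA motif on the minus strand, at 9 to 14 bases counted from 1 at the RefSeq start, and the hypoxia core on the minus strand at 22 to 26. The Ednrb window held 0 of the searched motifs, which says only that these letters are not in it. Of 32851 RefSeq promoter windows of this length, 13.6% held the TATA box, 7.81% the AP-1 motif, 1.25% the NF-kB motif, 11.2% the GATA motif and 19.6% the hypoxia core. The windows had a GC content of 51.3% for Edn1 and 58.7% for Ednrb. RefSeq promoters were matched for 5 of the 10 genes.

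Per length of exon, the junctional genes were by far the most abundant of the set. Cdh5 averaged 63 CPM per kb over the 12 libraries and Pecam1 37.7 CPM per kb, with ranges of 47.3 to 79.9 and 33.2 to 45.2 CPM per kb. Cdh5 was above Pecam1 in 12 of 12 libraries. A middle block followed with Ednra at 8.25, Nos3 at 7.55, Ednrb at 7.44, Vwf at 5.84, Icam1 at 3.86, Vcam1 at 3.55 and Edn1 at 3.28 CPM per kb. Neighbours within this block overlapped in range, for example Nos3 and Ednrb, where Nos3 was higher in 5 of 12 libraries. Selp was lowest, at 0.326 CPM per kb with a range of 0.0366 to 1.06, and Edn1 was above it in 12 of 12 libraries. The relative spread over the libraries was largest for Selp, with a coefficient of variation of 77%, and smallest for Pecam1 with 9.15%.

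**Figure D1:**
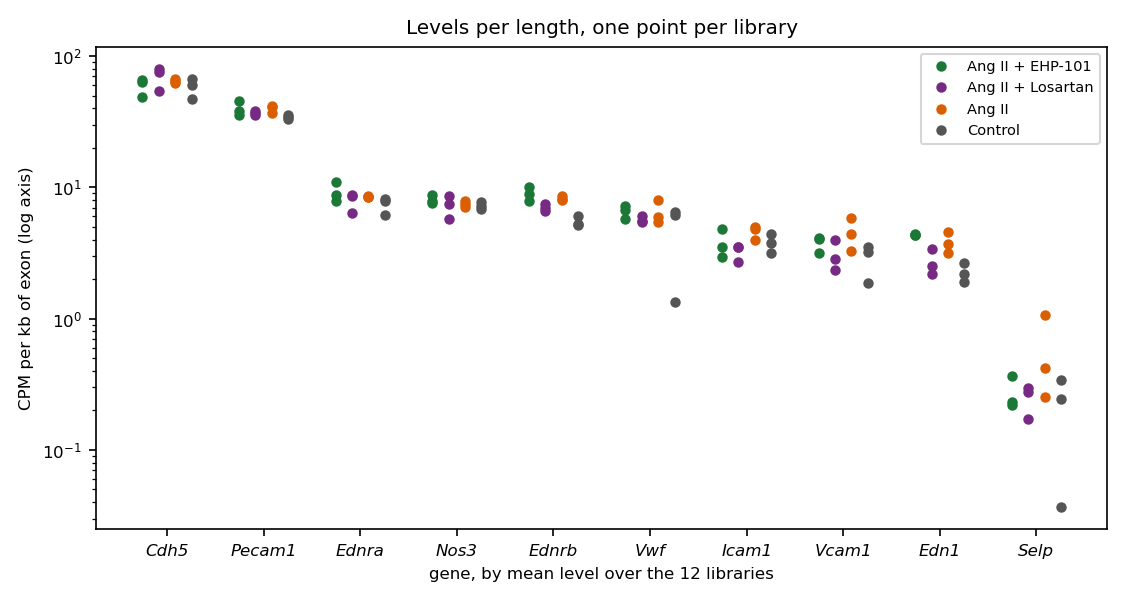
Level of each gene in CPM per kb of exon on a log axis, with 1 point per library, coloured by group and ordered by the mean over the 12 libraries. Cdh5 and Pecam1 lie apart at the top (means 63 and 37.7), Selp lies apart at the bottom (0.326), and the 7 genes between them overlap with their neighbours.

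Edn1 encodes the precursor of endothelin-1, the vasoconstrictor peptide. It had 9.3, 9.35 and 9.37 CPM in the EHP-101 libraries, 7.2, 5.39 and 4.68 CPM in the losartan libraries, 7.97, 6.77 and 9.71 CPM under Ang II, and 4.68, 4.09 and 5.72 CPM in the control libraries. Every EHP-101 and every Ang II library was above every control library. The losartan libraries overlapped with the control and the Ang II libraries and lay below all EHP-101 libraries. Edn1 was measured with 76 to 259 reads per library. The SD within the EHP-101 group, 0.0333 CPM, is below the 0.643 CPM that counting error alone gives at that depth, so the closeness of those 3 values is not a measure of precision.

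No Edn1 difference passed over all genes in edgeR. Edn1 averaged 8.15 ± 1.48 CPM under Ang II, against 4.83 ± 0.823 CPM in controls (SD, n = 3 each). This is 1.68-fold, a log2 fold change of 0.75 ± 0.20 (SE, 95% interval 0.33 to 1.17) with an edgeR adjusted p of 0.117. Against the same control libraries, the EHP-101 group averaged 9.34 ± 0.0333 CPM, 1.93-fold, or 0.95 ± 0.20 in log2 (95% interval 0.52 to 1.37, adjusted p = 0.0614). DESeq2 gave adjusted p values of 0.0261 for Ang II and 0.00156 for EHP-101, and limma-voom 0.128 and 0.0696. Whether Edn1 passed therefore depended on the tool. The losartan group averaged 5.76 ± 1.3 CPM, with a log2 fold change of 0.25 ± 0.20 to control (95% interval -0.18 to 0.68, edgeR adjusted p = 0.57). Set against Ang II, losartan gave -0.50 ± 0.19 (adjusted p = 0.483) and EHP-101 gave 0.20 ± 0.19 (adjusted p = 0.945). The direct difference of EHP-101 to losartan was 0.70 ± 0.19 (95% interval 0.28 to 1.12, adjusted p = 0.605, unadjusted p = 0.00326). These comparisons share their Ang II and control libraries, so they are not separate pieces of evidence.

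Ednrb encodes the endothelin B receptor, which on the endothelium releases nitric oxide and removes circulating endothelin. It had 33.5, 43.2 and 38.2 CPM in the EHP-101 libraries, 31.7, 28.2 and 29.9 CPM in the losartan libraries, 36.8, 34 and 34.7 CPM under Ang II, and 22.2, 22.4 and 26 CPM in the control libraries. Every library of the 3 infused groups was above every control library. The losartan libraries were below every EHP-101 and every Ang II library, while the EHP-101 and Ang II libraries overlapped.

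Ednrb rose in the EHP-101 group relative to control. It averaged 38.3 ± 4.83 CPM in the EHP-101 group and 23.5 ± 2.16 CPM in the control group (SD, n = 3 each), 1.63-fold, which is a log2 fold change of 0.70 ± 0.12 (SE, 95% interval 0.44 to 0.96, edgeR adjusted p = 0.0311). It was the 1 call among the 10 genes in this comparison, in which 0.3% of all tested genes were called higher. The call did not pass without Control replicate 1 or 3, any Ang II library, EHP-101 replicate 2 or 3, or losartan replicate 2, where adjusted p lay between 0.051 and 0.119, and without Control replicate 2 it was 0.0497. Over all 12 omissions the log2 fold change lay between 0.61 and 0.79. It passed in DESeq2 (adjusted p = 2.95e-05) and limma-voom (0.0435), and in 12 of 23 alternative settings in all. With only the EHP-101 and control libraries in the fit, adjusted p was 0.237.

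In the other comparisons Ednrb did not pass. The Ang II group averaged 35.2 ± 1.48 CPM, 1.49-fold relative to control and 0.58 ± 0.12 in log2 (95% interval 0.32 to 0.84, edgeR adjusted p = 0.0534), just outside the threshold. By unadjusted p it ranked 97 of the 15336 genes, and adjusted p was 0.00147 in DESeq2 and 0.0643 in limma-voom. With 1 library left out it passed in 0 of 12 fits, with edgeR adjusted p values of 0.053 to 0.253. With only the Ang II and control libraries in the fit, edgeR adjusted p was 0.177. It passed in 4 of 23 alternative settings in all. The losartan group averaged 29.9 ± 1.71 CPM, with log2 fold changes of 0.35 ± 0.12 to control (adjusted p = 0.456) and -0.23 ± 0.12 to Ang II (adjusted p = 0.635). EHP-101 differed from Ang II by 0.12 ± 0.12 (95% interval -0.13 to 0.38, adjusted p = 0.945) and from losartan by 0.36 ± 0.12 (adjusted p = 0.707). In a test of any difference among the 4 groups, edgeR called 0 of the 10 genes, where 0.189% of all genes were called. Ednrb had an adjusted p of 0.0796 and Edn1 of 0.126 there, and these 2 had an unadjusted p under 0.05, as 13.1% of all genes had. DESeq2 called both in that test, where it called 3.47% of all genes, and limma-voom called 0, where it called 0.143%.

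**Figure D2:**
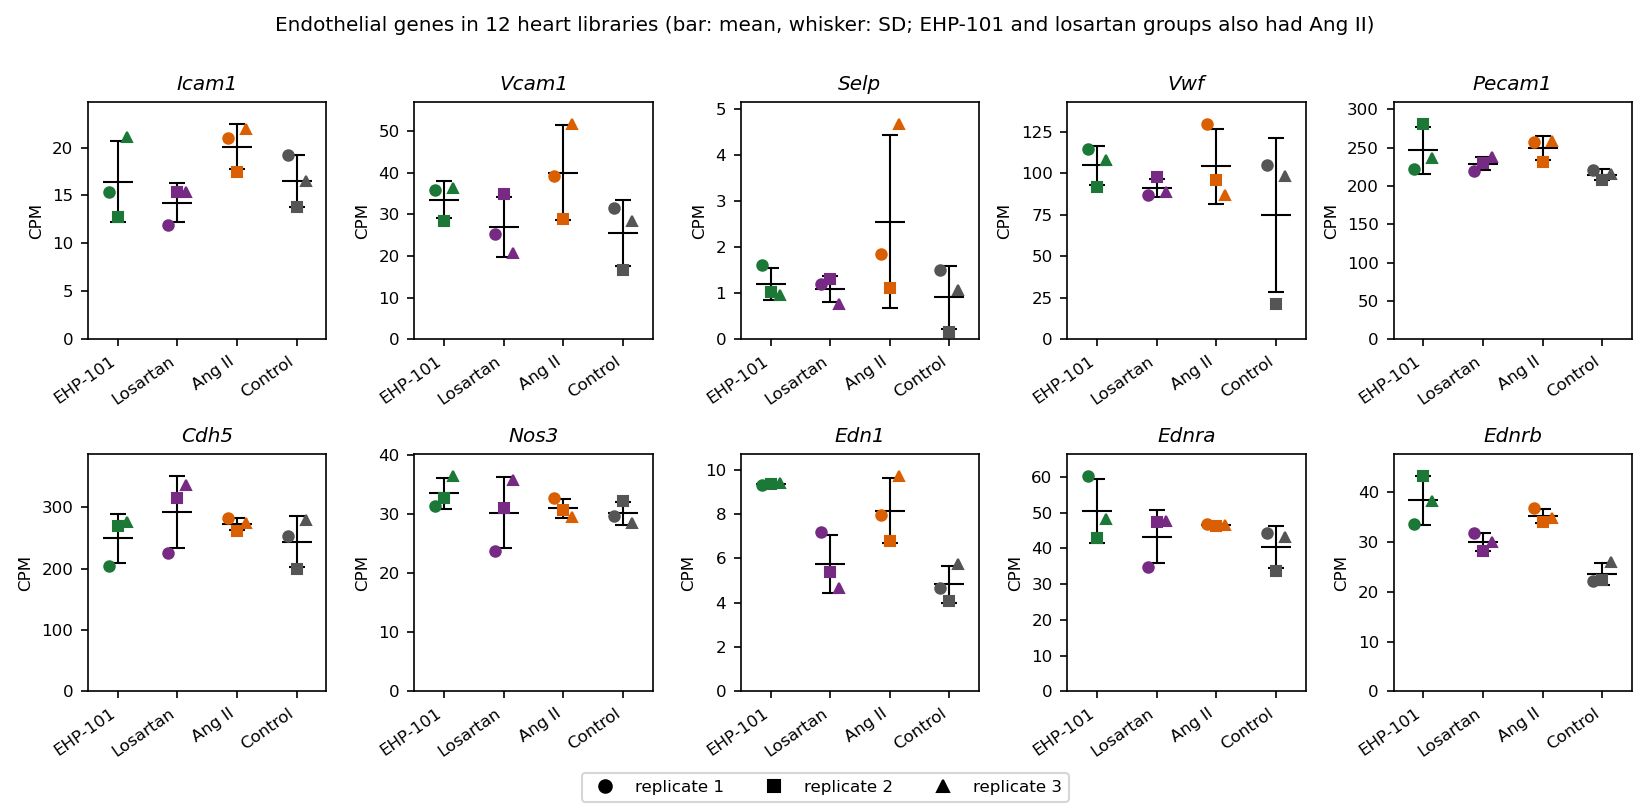
CPM of each of the 10 genes in the 12 libraries, by group, with the mean as a bar and the SD as whiskers (n = 3 each). The control libraries lie below every library of the 3 infused groups for Ednrb (22.2 to 26 CPM), and Control replicate 2 lies far below the others for Vwf (21.5 CPM).

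Marker sums of several cell types differed beside these genes. The 22 further endothelial markers, which hold none of the 10 genes, summed to 2160 to 2570 CPM in the EHP-101 group, 1880 to 2620 CPM in the losartan group, 2300 to 2430 CPM under Ang II, and 1980 to 2250 CPM in the control group. The Ang II sums were all above the control sums. With the mean score of these markers as a covariate, the log2 fold change of Ednrb was 0.69 for EHP-101 to control and 0.57 for Ang II to control, and that of Edn1 was 1.04 and 0.86. The edgeR adjusted p values were 0.0439 and 0.133 for Ednrb, and 0.0508 and 0.134 for Edn1. That score lay between -0.23 and 0.18 over the libraries. With the atrial score as a covariate the values were 0.70 and 0.58 for Ednrb, and 0.99 and 0.68 for Edn1. There the edgeR adjusted p values were 0.0199 and 0.122 for Ednrb, and 0.0333 and 0.276 for Edn1. Cardiomyocyte markers, 10 genes, summed to 70700 to 82400 CPM under EHP-101, 69900 to 76500 CPM under losartan, 59700 to 72100 CPM under Ang II, and 72800 to 93400 CPM in controls. The Ang II sums were all below the control sums, and 6 of the 10 were lower at an unadjusted p under 0.05 there, where 8.53% of all genes were, with 0 calls in edgeR. Fibroblast markers, 10 genes, summed to 4180 to 4630 CPM under EHP-101, 3320 to 4160 CPM under losartan, 4720 to 6140 CPM under Ang II, and 2540 to 4340 CPM in controls. At an unadjusted p under 0.05 in edgeR, 8 of the 10 were higher for Ang II to control, where 9.09% of all genes were. There edgeR called 1, Col3a1, where it called 0.541% of all genes. Relative to Ang II, 3 were lower for EHP-101 and 7 for losartan, where 5.11% and 6.14% of all genes were. No cardiomyocyte or fibroblast score was used as a covariate, and the part of either cell type in the values of Edn1, Ednrb and the other 8 genes was not tested. Set to the junctional gene Cdh5, the ratio of Edn1 per kb was 0.0898, 0.0683 and 0.0665 in the EHP-101 libraries, 0.0625, 0.0336 and 0.0274 in the losartan libraries, 0.0555, 0.0507 and 0.0696 in the Ang II libraries, and 0.0364, 0.0404 and 0.04 in the control libraries. The EHP-101 and Ang II ratios were above all control ratios.

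Ednra encodes the endothelin A receptor of smooth muscle and fibroblasts (ENSMUSG00000031616, chr8:77663031-77724464, minus strand). It had 60.3, 42.8 and 48.2 CPM in the EHP-101 libraries, 34.7, 47.5 and 47.7 CPM in the losartan libraries, 46.9, 46.4 and 46.5 CPM under Ang II, and 44.4, 33.8 and 43.1 CPM in the control libraries. The Ang II libraries were all above the control libraries and the other groups overlapped with both. The log2 fold change of Ang II to control was 0.20 ± 0.16 (edgeR adjusted p = 0.506) and that of EHP-101 to control 0.32 ± 0.16 (adjusted p = 0.332). Markers of smooth muscle, 8 genes, summed to 2830 to 3390 CPM under EHP-101, 2340 to 2440 CPM under losartan, 2450 to 2690 CPM under Ang II and 1930 to 2730 CPM in controls, and their part in the Ednra values was not tested. Ednra shares 91 of its 5476 exon bases with 4933431K23Rik on the other strand, and the kit keeps no strand, so reads on those bases cannot be told apart.

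The balance of the receptor pair also differed between libraries. The ratio of Ednrb to Ednra, both per kb, was 0.713, 1.29 and 1.02 under EHP-101, 1.17, 0.763 and 0.805 under losartan, 1.01, 0.941 and 0.957 under Ang II, and 0.642, 0.85 and 0.775 in controls. The Ang II ratios were above the control ratios, and those of both drug groups spread over the range of the other groups.

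Across the 12 libraries, Edn1 and Ednrb had a Pearson correlation of 0.88 and a Spearman correlation of 0.87 on the log2 CPM scale. The points share the group structure, the libraries and their scaling, so the value describes the libraries and is no test. Edn1 and Ednra had 0.43, and Ednra and Ednrb 0.37. Among all pairs of the 10 genes, the highest Pearson correlation was 0.90 for Vcam1 and Selp, where Control replicate 2 and Ang II replicate 3 lie at the ends. The Spearman correlation of Vcam1 and Selp was 0.76. Without the 2 libraries farthest from the median on the first gene, Pearson correlations were 0.78 for Edn1 and Ednrb, leaving out Control replicates 1 and 2, and 0.72 for Vcam1 and Selp, leaving out Control replicate 2 and Ang II replicate 3. Spearman correlations were then 0.79 and 0.58.

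**Figure D3:**
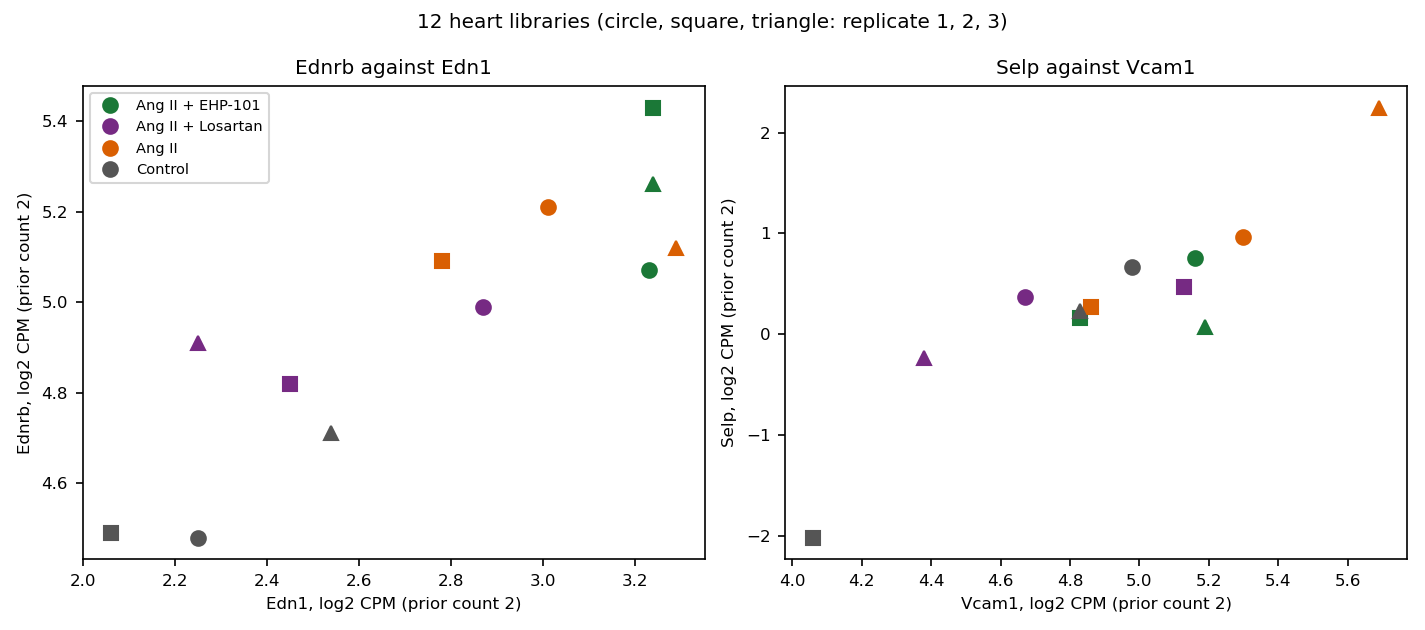
log2 CPM of Ednrb against Edn1 (left) and of Selp against Vcam1 (right), with 1 point per library, coloured by group and shaped by replicate. On the left the control libraries lie at the low end and the EHP-101 and Ang II libraries at the high end, and on the right Control replicate 2 and Ang II replicate 3 lie at opposite ends.

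The adhesion molecules had their highest means under Ang II, without a call. Icam1 (ENSMUSG00000037405, chr9:21015985-21028817, plus strand) encodes the ligand on which leukocyte integrins arrest. It had 15.4, 12.8 and 21.1 CPM under EHP-101, 11.9, 15.4 and 15.4 CPM under losartan, 21, 17.4 and 21.9 CPM under Ang II, and 19.2, 13.8 and 16.5 CPM in controls. All losartan libraries were below all Ang II libraries, and the groups overlapped in the other pairs. The log2 fold change of losartan to Ang II was -0.50 ± 0.19 (95% interval -0.91 to -0.08, edgeR adjusted p = 0.483), that of EHP-101 to Ang II -0.29 ± 0.19 (adjusted p = 0.874) and that of Ang II to control 0.28 ± 0.19 (adjusted p = 0.44). Icam1 shares 511 of its 4360 exon bases with a predicted gene on the other strand, and its reads are uncertain to that extent.

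Vcam1 (ENSMUSG00000027962, chr3:116109949-116129688, minus strand) encodes the ligand of the leukocyte integrin made from Itga4 and Itgb1. It had 35.7, 28.3 and 36.4 CPM under EHP-101, 25.3, 34.9 and 20.7 CPM under losartan, 39.2, 28.9 and 51.7 CPM under Ang II, and 31.4, 16.6 and 28.4 CPM in controls. The groups overlapped in every pair. Ang II averaged 40 ± 11.4 CPM and control 25.5 ± 7.86 CPM, with a log2 fold change of 0.65 ± 0.26 (95% interval 0.08 to 1.22, edgeR adjusted p = 0.249), which was 0.42 without Control replicate 2 and 0.43 without Ang II replicate 3. Losartan differed from Ang II by -0.57 ± 0.26 (adjusted p = 0.598), and by -0.06 with the atrial score as a covariate. EHP-101 differed from Ang II by -0.26 ± 0.26 (adjusted p = 0.95), and by 0.12 with the atrial score.

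Selp (ENSMUSG00000026580, chr1:164115264-164150026, plus strand) encodes P-selectin, which is stored in granules of endothelial cells and platelets. It was the least counted of the set, with 3 to 125 reads per library. Of its 4413 exon bases, 624 are shared with the predicted genes Gm16548 and Gm16587 on the other strand. These had 0 to 2 and 0 to 1 reads per library, and Selp is uncertain to that extent. It had 1.61, 1.03 and 0.963 CPM under EHP-101, 1.21, 1.3 and 0.759 CPM under losartan, 1.86, 1.12 and 4.68 CPM under Ang II, and 1.5, 0.161 and 1.08 CPM in controls. Ang II replicate 3 was the highest library and Control replicate 2 the lowest, and all groups overlapped. The log2 fold change of Ang II to control was 1.44 ± 0.59 (edgeR adjusted p = 0.251), and it was 0.67 without Ang II replicate 3 and 0.98 without Control replicate 2. The drug groups differed from Ang II by -1.09 ± 0.58 for EHP-101 (adjusted p = 0.791) and -1.23 ± 0.58 for losartan (adjusted p = 0.606), and by -0.31 and -0.46 without Ang II replicate 3. Platelet markers, 8 genes, summed to 8.71 to 30.5 CPM under EHP-101, 16.1 to 70.8 CPM under losartan, 18.7 to 41 CPM under Ang II and 19.4 to 50.7 CPM in controls, and their part in the Selp values was not tested.

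**Figure D4:**
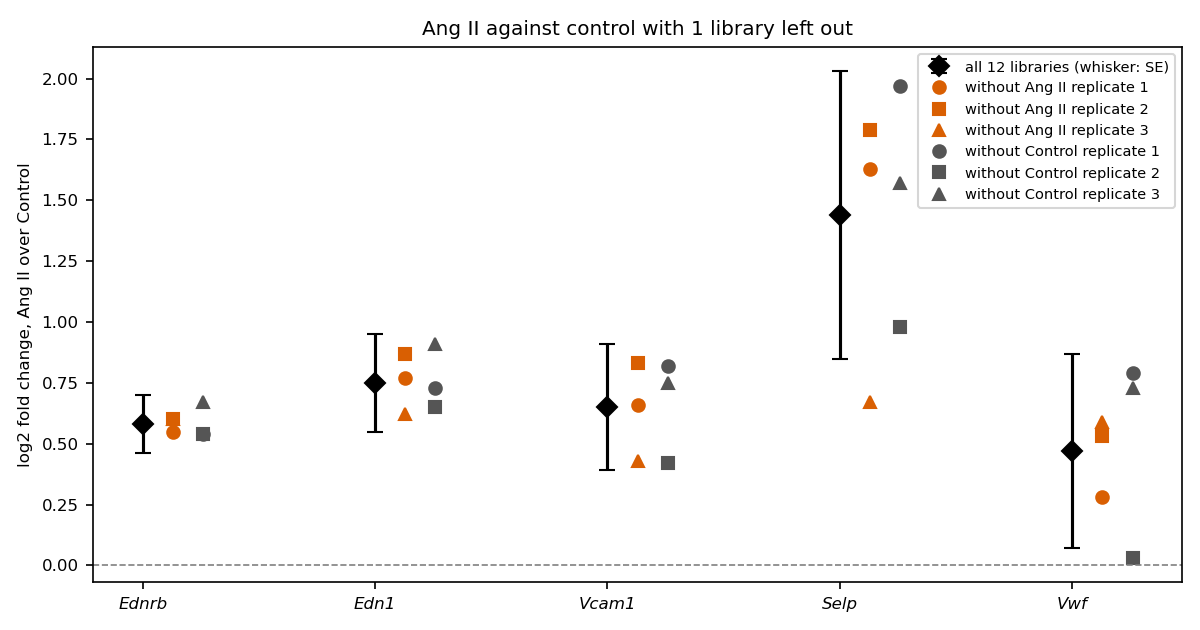
log2 fold change of Ang II to control for 5 genes, with all 12 libraries (diamond, whisker: SE) and with each Ang II or control library left out. Ednrb and Edn1 keep values between 0.54 and 0.91, whereas Selp has 0.67 without Ang II replicate 3 and Vwf 0.03 without Control replicate 2.

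Vwf (ENSMUSG00000001930, chr6:125546774-125686679, plus strand) encodes von Willebrand factor, which endothelial cells store and release to bind platelets. It had 115, 91.7 and 108 CPM under EHP-101, 87, 97.6 and 89.1 CPM under losartan, 130, 95.9 and 87.3 CPM under Ang II, and 105, 21.5 and 98.7 CPM in controls. Control replicate 2 was far below all others, and the groups overlapped. The log2 fold change of Ang II to control was 0.47 ± 0.40 (edgeR adjusted p = 0.535), and 0.03 without Control replicate 2. That library also had the lowest values of Vcam1, Selp, Pecam1, Cdh5, Ednra and Edn1 among the 12 libraries. Its venous and endocardial markers summed to 417 CPM, against 520 and 489 CPM in the other controls.

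Venous and endocardial markers, 8 genes, summed to 571 to 812 CPM under EHP-101, 410 to 576 CPM under losartan, 667 to 911 CPM under Ang II and 417 to 520 CPM in controls. The Ang II and EHP-101 sums were all above the control sums, but the single gene Mgp made up a large part of them, with 476 ± 78 CPM under EHP-101. The median log2 fold change of the 8 genes to control was 0.46 for Ang II and 0.08 for EHP-101. At an unadjusted p under 0.05 in edgeR, 1 of the 8 was higher and 0 lower in each, where 9.09% and 8.76% of all genes were higher. Among them Mgp, a matrix protein of vessel walls, had 530 ± 111 CPM under Ang II and 240 ± 51.7 CPM in controls (log2 fold change 1.14 ± 0.29, adjusted p = 0.109 in edgeR and 0.00731 in DESeq2). The part of these cells in the Vwf, Selp and Vcam1 values was not tested.

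Pecam1 (ENSMUSG00000020717, chr11:106654217-106750628, minus strand) encodes an adhesion protein of endothelial junctions. It had 222, 281 and 236 CPM under EHP-101, 220, 230 and 237 CPM under losartan, 257, 231 and 259 CPM under Ang II, and 221, 207 and 215 CPM in controls. The Ang II and EHP-101 libraries were above all controls, by small amounts: the log2 fold changes to control were 0.20 ± 0.12 for EHP-101 (edgeR adjusted p = 0.389) and 0.22 ± 0.12 for Ang II (adjusted p = 0.359).

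Cdh5 (ENSMUSG00000031871, chr8:104101625-104144511, plus strand) encodes VE-cadherin, the junction protein that defines endothelium. It had 204, 269 and 277 CPM under EHP-101, 226, 316 and 336 CPM under losartan, 282, 262 and 274 CPM under Ang II, and 253, 199 and 280 CPM in controls. The groups overlapped in every pair. The log2 fold changes to control were 0.03 for EHP-101, 0.26 for losartan and 0.16 for Ang II, each ± 0.18, with edgeR adjusted p values of 0.93, 0.523 and 0.646.

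Nos3 (ENSMUSG00000028978, chr5:24364810-24384474, plus strand) encodes endothelial nitric oxide synthase, which relaxes vessels. It had 31.4, 32.6 and 36.4 CPM under EHP-101, 23.8, 31 and 35.8 CPM under losartan, 32.7, 30.7 and 29.5 CPM under Ang II, and 29.6, 32.2 and 28.4 CPM in controls. The groups overlapped in every pair, and the log2 fold change of Ang II to control was 0.04 ± 0.14, with a 95% interval of -0.26 to 0.35 (edgeR adjusted p = 0.89). Nos3 shares 1334 of its 4132 exon bases with Atg9b and a predicted gene on the other strand. Atg9b had 20 to 52 reads per library, against 513 to 861 for Nos3.

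Between Ang II and control, 10 of 10 genes had a positive log2 fold change, where 49.9% of all tested genes did, with a median of 0.38 against 0 over all genes. Control replicate 2, the lowest library for Vwf, Vcam1, Selp, Pecam1, Cdh5, Ednra and Edn1, is part of every comparison to control. Omitting 1 library left all 10 positive, with lows of 0.01 for Nos3, 0.03 for Vwf, 0.03 for Cdh5 and 0.09 for Ednra. In edgeR 0 of the 10 genes were called, where 0.541% of all genes were. At an unadjusted level 4, Vcam1, Selp, Edn1 and Ednrb, had higher values with p under 0.05, where 9.09% of all genes did. DESeq2 called 2, Edn1 and Ednrb, where it called 3.36% of all genes, and limma-voom called 0, where it called 0.333%. The Ang II values were all above the control values for Pecam1, Edn1, Ednra and Ednrb, 4 of 10, where 12.3% of all genes were. Library size scaling moves the median of all genes by 0.17 in this comparison, and under it Ednrb had a log2 fold change of 0.75 and passed (adjusted p = 0.0327). The endothelial score as a covariate turned the small values of Cdh5 and Nos3 to -0.04 and -0.11.

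Relative to Ang II, edgeR called 0 of the 10 genes for either drug, and 0% of all genes. The 2 comparisons share the Ang II libraries. Under EHP-101, 5 of 10 log2 fold changes were positive with a median of 0, where 50% of all genes were positive, and 0 of the 10 had an unadjusted p under 0.05, where 7.22% of all genes had. No gene of the 10 separated the EHP-101 from the Ang II libraries, where 16.8% of all genes did. Under losartan, 1 of 10 was positive, with a median of -0.21, where 50.6% of all genes were positive. The losartan values were all below the Ang II values for Icam1 and Ednrb, 2 of 10, where 10.5% of all genes were, and 2 genes, Icam1 and Edn1, were lower at an unadjusted p under 0.05, where 6.14% of all genes were. DESeq2 called 0 of the 10 for either drug, where it called 0.386% of all genes for EHP-101 and 0.734% for losartan, and limma-voom also called 0, as it did over all genes (0%). With quality weights limma-voom called 1, Edn1, lower under losartan (adjusted p = 0.023), where it called 3.9% of all genes. That fit weighted losartan replicates 1, 2 and 3 at 0.389, 2.51 and 1.16, and replicate 1 had the highest Edn1 of that group (7.2 CPM). Control replicate 2 had a weight of 0.112.

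EHP-101 and losartan were also compared directly. In edgeR 0 of the 10 genes were called, as were 0% of all genes. DESeq2 and limma-voom also called 0 of the 10, where they called 0.103% and 0% of all genes, and 9 of 10 log2 differences were positive, where 50.1% of all genes were. The EHP-101 values were all above the losartan values for Edn1 and Ednrb, 2 of 10, where 6.57% of all genes were, and the same pair was higher at an unadjusted p under 0.05, where 3.07% of all genes were. The other 8 genes had log2 differences of -0.23 for Cdh5 to 0.31 for Vcam1, all with intervals that span 0. Against control, EHP-101 gave positive log2 fold changes for 9 of 10 genes, where 45.9% of all genes were positive, with a median of 0.34 against -0.03 over all genes. At an unadjusted p under 0.05 it had 2 higher, Edn1 and Ednrb, where 8.76% of all genes were. DESeq2 called the same 2, where it called 3.34% of all genes, and limma-voom called 1, Ednrb, where it called 0.293%. Its values were all above the controls for Pecam1, Edn1 and Ednrb, 3 of 10, where 10.7% of all genes were. Losartan also gave 9 of 10 positive values to control, where 47.2% of all genes were, with a median of 0.15. In edgeR, DESeq2 and limma-voom 0 of the 10 were called, where these tools called 0%, 0.161% and 0% of all genes. Ednrb was the 1 gene with an unadjusted p under 0.05, where 5.54% of all genes were higher, and the 1 gene whose losartan values were all above the controls, where 8.27% of all genes were.

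**Figure D5:**
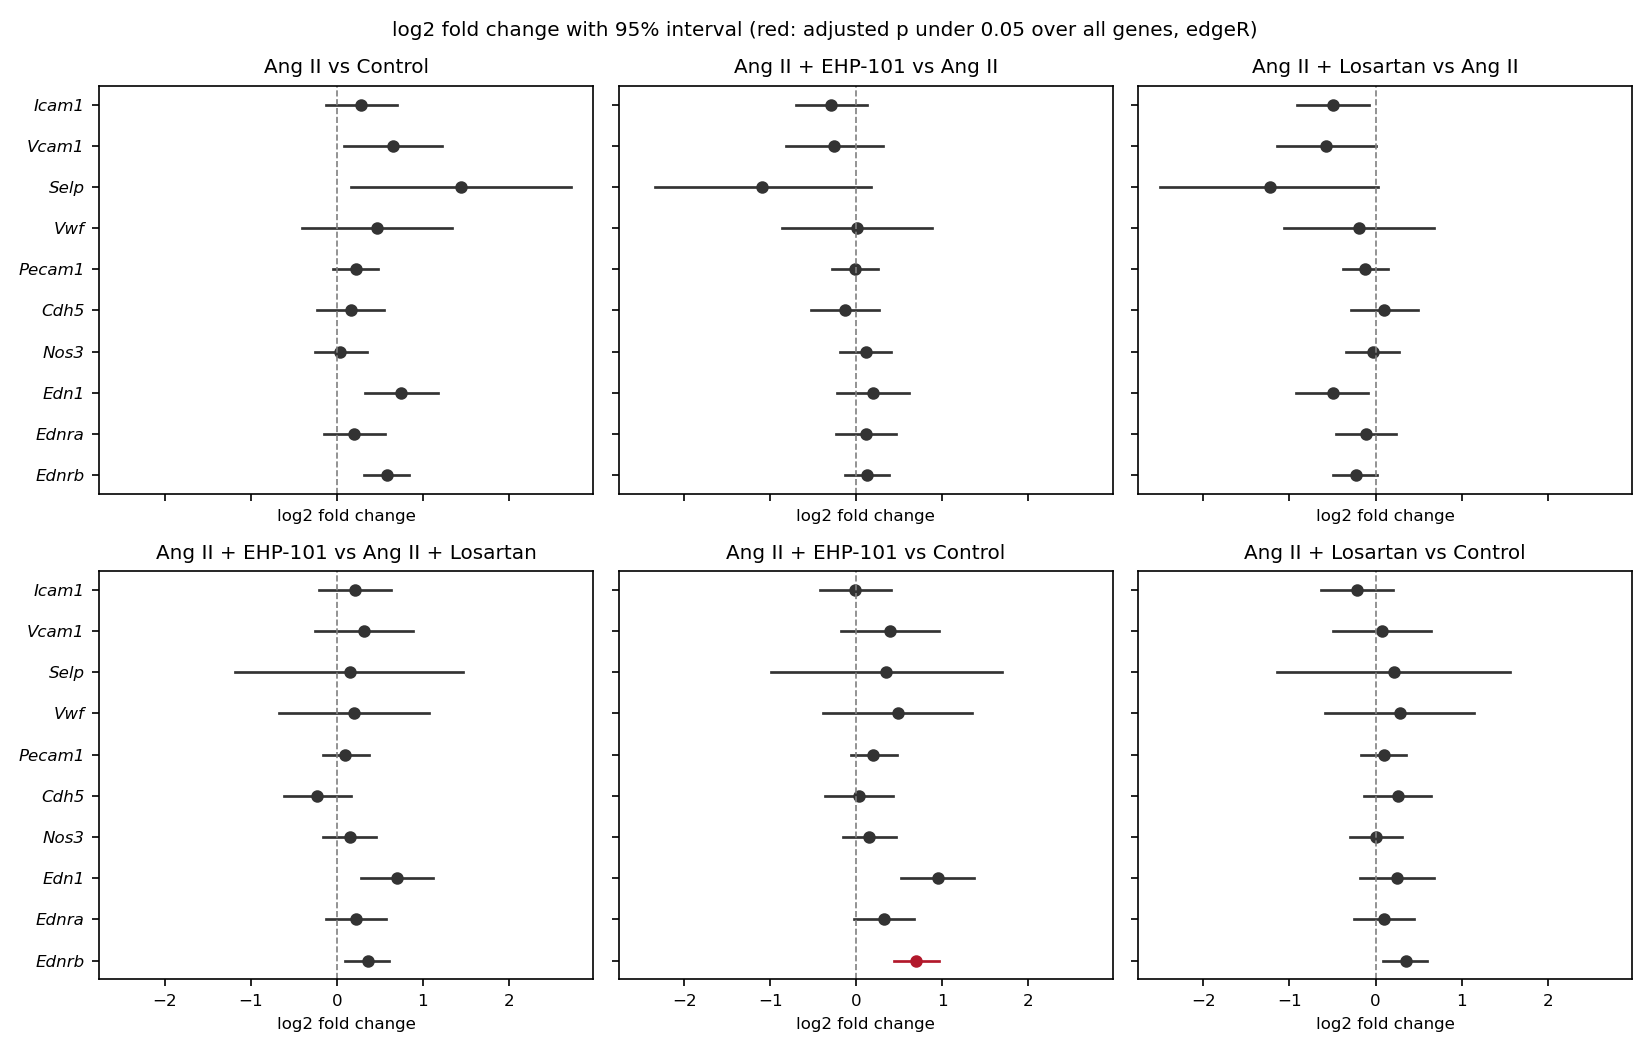
log2 fold change of each of the 10 genes with its 95% interval in the 6 comparisons, with a call in edgeR in red. The interval of Ednrb for EHP-101 to control (0.44 to 0.96) is drawn in red as the 1 call of the 6 panels, and Edn1 and Ednrb lie to the right of 0 in the same panel and for Ang II to control.

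Genes that act on the same pathways were read from lists chosen with earlier results of these data known. Of 7 further genes of the endothelin system, 4 had enough reads, and edgeR called 0 of them in the 6 comparisons. Ece1, which cuts the precursor to endothelin-1, had 123 ± 13.1 CPM under EHP-101, 112 ± 16.1 CPM under losartan, 129 ± 7.52 CPM under Ang II and 98.4 ± 42.1 CPM in controls. Mme encodes neprilysin, a protease that can degrade endothelin, and had 8.62 ± 0.885 CPM under EHP-101, 15 ± 1.27 CPM under losartan, 9.87 ± 0.77 CPM under Ang II and 12.6 ± 0.579 CPM in controls. Its EHP-101 values were below its losartan values, with a log2 difference of -0.80 ± 0.13 (unadjusted p = 3.10e-05) that did not pass over all genes in edgeR (adjusted p = 0.158). DESeq2 called Mme lower there, higher for losartan to Ang II and lower for EHP-101 to control. Of the other endothelin peptides, Edn2 had 0 to 3 reads per library and Edn3 had 35 to 266 reads.

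Of the nitric oxide and cGMP genes, 15 of 18 were tested. For Ang II to control, edgeR called 1 of them, Ddah1, higher, where it called 0.541% of all genes. DESeq2 called 2 higher there, Ddah1 and Gucy1b1, where it called 3.36% of all genes. The 1 called by limma-voom was Ddah1, where it called 0.333%. At an unadjusted p under 0.05 in edgeR, 4 of the 15 were higher and 0 lower, where 9.09% and 8.53% of all genes were. Ddah1 breaks down an inhibitor of nitric oxide synthases. It had 24.7 ± 2.64 CPM under Ang II and 9.42 ± 1.82 CPM in controls (SD, n = 3 each), with a log2 fold change of 1.39 ± 0.25 (edgeR adjusted p = 0.0299). The difference passed in 14 of 23 alternative settings, with log2 fold changes of 1.31 to 1.6. It did not pass without any 1 of the control libraries, Ang II replicate 1 or 3, or losartan replicate 2, where the highest adjusted p was 0.153. It had 20.3 ± 6.98 CPM under EHP-101 and 12.5 ± 3.52 CPM under losartan, with edgeR adjusted p values of 0.0834 for EHP-101 to control and 0.268 for losartan to Ang II. DESeq2 called it higher for EHP-101 to control and lower for losartan to Ang II. Gucy1b1, a subunit of the receptor of nitric oxide in smooth muscle, had 41.2 ± 3.18 CPM under Ang II and 29.6 ± 3.23 CPM in controls (log2 fold change 0.48 ± 0.12, adjusted p = 0.108 in edgeR and 0.0134 in DESeq2).

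In the other lists of endothelial genes, edgeR called 0 in each of the 6 comparisons. Among 21 tested adhesion molecules and leukocyte counter-receptors, the count with an unadjusted p under 0.05 was 4 higher and 1 lower for Ang II to control. Of all genes, 9.09% were higher and 8.53% lower there. DESeq2 and limma-voom called 0 of the 21, where they called 3.36% and 0.333% of all genes. For EHP-101 to Ang II, 6 were lower, where 5.11% of all genes were, and for losartan to Ang II 2 were, where 6.14% were. The median log2 fold changes of the list were -0.39 for EHP-101 and -0.37 for losartan to Ang II, and 0.33 for Ang II to control, against 0 over all genes in each. DESeq2 called 2 lower for EHP-101, Selplg and Cx3cr1, where it called 0.386% of all genes, and 0 for losartan, where it called 0.734%. Selplg, the ligand of P-selectin on leukocytes, had 3.09 ± 0.867 CPM under EHP-101 and 6.78 ± 1.95 CPM under Ang II (log2 fold change -1.13 ± 0.26, adjusted p = 0.324 in edgeR and 0.0208 in DESeq2). Leukocyte markers, 8 genes, summed to 15.5 to 22 CPM under EHP-101, 21.8 to 31.4 CPM under losartan, 28.9 to 43.5 CPM under Ang II and 17.9 to 24.8 CPM in controls. Macrophage and monocyte markers, 10 genes, summed to 210 to 388, 331 to 452, 454 to 616 and 403 to 592 CPM in the same order. At an unadjusted p under 0.05 in edgeR, 2 of the 10 were higher for Ang II to control, where 9.09% of all genes were. Relative to Ang II, 7 were lower for EHP-101 and 5 for losartan, where 5.11% and 6.14% were. Ccr2 was the 1 of the 10 called by edgeR for Ang II to control, where edgeR called 0.541% of all genes. It had 19.4 ± 8.55 CPM under Ang II, against 4.68 ± 1.66 CPM in controls (edgeR adjusted p = 0.039). The Ccr2 difference passed in 11 of 23 alternative settings, with log2 fold changes of 1.64 to 2.29, and did not pass without any 1 of the control libraries, Ang II replicate 1 or 3, losartan replicate 2 or EHP-101 replicate 3 (adjusted p up to 0.215). The part of these cells in the adhesion values was not tested.

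Among 18 genes of endothelial activation and NF-kB signalling, the count at an unadjusted p under 0.05 was 6 higher and 1 lower for Ang II to control, beside the same 9.09% and 8.53% of all genes. DESeq2 called 4 (Ptgs2, Sod2, Cxcl1 and Il6), 3 higher and 1 lower, where it called 3.36% of all genes. Relative to Ang II, 6 were lower and 1 higher under EHP-101, where 5.11% and 2.11% of all genes were, and 4 were lower under losartan, where 6.14% were. DESeq2 called 2 lower for EHP-101 (Ccl2 and Cxcl1) and 3 for losartan (Ptgs2, Cxcl1 and Il6), where it called 0.386% and 0.734% of all genes. Ptgs2, an inducible prostaglandin synthase, had 7.84 ± 3.68 CPM under Ang II and 2.06 ± 0.965 CPM in controls (log2 fold change 1.91 ± 0.46, adjusted p = 0.102 in edgeR and 0.00395 in DESeq2). The chemokine Cxcl1 had 1.4 ± 0.98 CPM under EHP-101, 1.05 ± 0.328 CPM under losartan and 4.88 ± 1.42 CPM under Ang II, with log2 fold changes of -1.80 ± 0.43 and -2.21 ± 0.44 to Ang II (edgeR adjusted p = 0.328 and 0.166). DESeq2 called Cxcl1 in both, with adjusted p values of 0.0228 for EHP-101 and 9.46e-04 for losartan, and limma-voom in neither (0.335 and 0.163). Of 12 tested genes of von Willebrand factor storage, clotting and clot lysis, 3 were higher at that level for Ang II to control, where 9.09% of all genes were, and 2 for EHP-101 to control, where 8.76% were.

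Of the 22 further endothelial markers, Sox17, a transcription factor of arterial endothelium, had 19.8 ± 8.52 CPM under EHP-101 and 9.77 ± 0.555 CPM in controls (log2 fold change 1.02 ± 0.22, edgeR adjusted p = 0.0832). DESeq2 called Sox17 and Flt1 higher there, where it called 3.34% of all genes. Without EHP-101 replicate 2 the log2 fold change of Sox17 was 0.6, and it passed in edgeR with 0 of the 12 libraries left out in turn. Capillary markers, 12 genes, had 5 higher for EHP-101 to Ang II at an unadjusted p under 0.05, where 2.11% of all genes were. For losartan to Ang II 1 was higher, and the share of all genes higher there is not given here. DESeq2 called 0 in either, where it called 0.386% and 0.734% of all genes. Median log2 fold changes of these markers were 0.49 for EHP-101 and 0.37 for losartan to Ang II, against 0 over all genes in each. Their sums were 3240 to 4470 CPM under EHP-101, 3310 to 4980 CPM under losartan, 2830 to 3120 CPM under Ang II and 3110 to 3980 CPM in controls, so the sums of both drug groups were above all Ang II sums and overlapped with each other and with the controls. Arterial markers, 10 genes, had 2 higher for Ang II to control, of which DESeq2 called Fbln5, and 7 tested lymphatic markers had 1 higher, Pdpn, called by DESeq2, beside 9.09% of all genes higher at that level. In that comparison DESeq2 called 3.36% of all genes. For EHP-101 to control, 3 arterial markers were higher and 1 lower at that level, where 8.76% of all genes were higher. Their median log2 fold change was 0.06. DESeq2 called Sema3g, Sox17 and Fbln5 higher, where it called 3.34% of all genes. Sox17 is also among the 22 further endothelial markers, of which 5 were higher and 2 lower there. Ccl21a, a lymphatic chemokine, had 0 reads in all 12 libraries.

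The genes most like each member over the 12 libraries were taken by Pearson correlation of log2 CPM among 12378 genes, leaving out predicted genes and pseudogenes. Nearest to Edn1 were Runx2 (0.96), Pde1a (0.95) and Cgref1 (0.94), and nearest to Ednrb were Itga5 (0.94), Tgfb2 (0.94) and Col8a1 (0.93). For the adhesion genes they were Acvr1, Unc5b and Nfkb1 for Icam1 (0.95, 0.95 and 0.93), Boc, Acan and Scara3 for Vcam1 (0.97, 0.95 and 0.95), and Cd44, Chl1 and Ptprz1 for Selp (0.97, 0.96 and 0.94). Vwf was nearest to Pdzd2, Bicral and Atf7 (0.98, 0.98 and 0.97), where Spearman correlations were 0.90, 0.70 and 0.69. Pecam1 was nearest to Layn, Ace and Lrrfip1 (0.94, 0.94 and 0.90), and Cdh5 to Nrp2, Papln and Nid2 (0.95, 0.94 and 0.94). Nos3 had Trp53inp2, Ptger1 and Trak2 (0.91, 0.87 and 0.85), with Spearman correlations of 0.56, 0.76 and 0.64. Ednra had Plxnb2, Fam222b and Abca7 (0.92, 0.90 and 0.90), with Spearman correlations of 0.62, 0.85 and 0.88. For the genes other than Vwf, Nos3 and Ednra, the lowest Spearman correlation was 0.79, for Pecam1 and Layn. The highest of 12378 correlations over 12 points is high by selection, and the libraries share their groups and Control replicate 2.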

How the data were processed

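Heart RNA was extracted with Qiazol, and 300 ng per library went through an oligo-dT TruSeq kit, which keeps no strand, and single reads of 50 bp on a HiSeq, per the labels' protocols. The deposited values are raw read counts per gene. The submitters' processing notes name fastp 0.20.0, HISAT2 2.1.0, featureCounts 2.0.0, edgeR 3.30.0 and the build GRCm38 as what the authors used. The annotation release and strand setting are not given in the sources used here. Positions and exon lengths are from GENCODE M21, which held 47310 of the 47729 identifiers, and 47224 matched a symbol. Groups came from the sample labels. No 2 libraries were identical.

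Genes passing edgeR's filterByExpr (15336) were scaled by TMM and fitted in edgeR 4.0.16 (R 4.3.3) with 1 mean per group over the 12 libraries and the robust quasi-likelihood F test, with Benjamini-Hochberg adjustment. The SE is the log2 fold change over the square root of F. Alternatives were DESeq2 1.42.0, limma-voom (limma 3.58.1), other scalings and filters, a replicate block, marker scores as covariates, and each library left out. The script was tested on simulated counts. The 10 genes and the lists were chosen with earlier results of these data known. The rule for named genes took all 10 genes, from each list in each comparison every called gene or otherwise up to 2 with the smallest p (the text gives some of these), and per gene the 3 with the highest Pearson correlation and a mean of at least 1 CPM. Edn2, Ccl21a and genes named as DESeq2 calls were chosen after their values were seen. A result on 1 gene of the lists is not reported here.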

Additional observations from a re-analysis of the deposited data

How the results depend on the processing

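The number of the 10 genes called for EHP-101 to control, 1 in edgeR, was 0 with library size scaling, with only the 2 groups and with the replicate block, 2 with DESeq2, quality weights, no filter or the atrial covariate, and 0 to 2 with 1 library left out. For Ang II to control it was 0, but 1 with library size scaling or a mean of at least 5 CPM, and 2 with DESeq2 or quality weights. For losartan to Ang II it was 1 with quality weights, and for any difference 2 with DESeq2, quality weights or no filter. The same replicate number correlated above 0.1 in 4 of 18 pairs (range -0.33 to 0.33). These were Control with Ang II and with EHP-101, for replicates 1 and 2. Libraries of unlike number were not compared, so these values cannot decide whether the numbers pair the libraries. Under the replicate block, Ednrb for EHP-101 to control had an edgeR adjusted p of 0.0614, and calls over all genes there were 36, against 61. Calls over all genes were 83 for Ang II to control (8 to 151 with 1 library left out, 20 to 2617 under other settings), 61 for EHP-101 to control (5 to 62, and 14 to 492) and 29 for any difference (3 to 31, and 7 to 1977). Over all genes the counts were 0 for EHP-101 to Ang II (up to 61), losartan to Ang II (up to 598), EHP-101 to losartan (up to 25) and losartan to control (up to 22). Of 1374 values of single genes under alternatives, 63 changed sign, all of them values with an adjusted p of at least 0.05. Library size scaling, which shifts the median of all genes by -0.15 for EHP-101 to Ang II and -0.12 for losartan to Ang II, gave log2 values of -0.14 for Vwf, -0.04 for Nos3, -0.03 for Ednra and -0.03 for Ednrb (EHP-101 to Ang II), -0.02 for Cdh5 (losartan to Ang II) and 0.01 for Icam1 (EHP-101 to control). A mean of at least 5 CPM gave -0.02 for Vwf (EHP-101 to Ang II) and 0.01 for Icam1 (EHP-101 to control), and no value for Selp. Quality weights gave 0.04 for Nos3 (losartan to Ang II), -0.12 for Selp and -0.10 for Cdh5 (EHP-101 to control), and -0.06 for Vcam1, -0.28 for Selp and -0.09 for Vwf (losartan to control). For Nos3, losartan to control gave -0.01 with limma-voom, 0 with the replicate block, -0.12 with the endothelial and -0.03 with the atrial covariate. The endothelial covariate gave -0.04 for Cdh5 and -0.11 for Nos3 (Ang II to control) and -0.13 for Cdh5 (EHP-101 to control). The atrial covariate gave 0.12 for Vcam1 (EHP-101 to Ang II), 0.58 for Vwf and 0.02 for Ednra (losartan to Ang II), -0.05 for Vwf (EHP-101 to losartan) and 0.04 for Icam1 (EHP-101 to control). With 1 library left out, values for EHP-101 to Ang II ran from -0.11 to 0.2 for Vwf, -0.12 to 0.05 for Pecam1, -0.21 to 0 for Cdh5 and -0.03 to 0.22 for Ednra. For losartan to Ang II they ran from -0.01 to 0.26 for Cdh5, -0.17 to 0.11 for Nos3 and -0.18 to 0.03 for Ednra. For EHP-101 to losartan they ran from -0.01 to 0.35 for Icam1, -0.13 to 0.29 for Selp and -0.01 to 0.17 for Pecam1. For EHP-101 to control they ran from -0.23 to 0.14 for Icam1, -0.1 to 0.88 for Selp and -0.09 to 0.16 for Cdh5. For losartan to control they ran from -0.15 to 0.26 for Vcam1, -0.24 to 0.73 for Selp, -0.15 to 0.6 for Vwf, -0.13 to 0.15 for Nos3 and -0.01 to 0.23 for Ednra. The cause of these changes was not tested. Depth limits Selp, with 3 reads in the lowest library.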
